A study of Mus musculus with 6 samples.

Results

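The collagen chains are the protein-coding mouse genes whose symbol is Col, a number, the letter a and a number, such as Col1a1, by a GENCODE annotation of the mouse genome build GRCm38. The annotation holds 44 such genes among the 46603 gene identifiers listed in each library. They were followed by RNA sequencing in beta-actin knockout fibroblasts from mouse embryos, called KO (3 libraries), and in wild-type fibroblasts, called WT (3 libraries). Such cells are known as MEFs. Both genotypes are of the BALB/c strain and were taken from embryos aged 10.5 days. Both had spent 6 days in a fat-cell differentiation medium that contains IBMX, a phosphodiesterase inhibitor, the glucocorticoid dexamethasone, insulin and ascorbic acid. The comparison of KO with WT asks how expression differs between the genotypes under this induction, and no library without induction is used here. The labels do not say how many embryos or MEF lines stand behind a genotype or whether the libraries of a genotype came from separate cultures. The p-values then measure only the spread between these libraries, which may be technical.

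Collagens are the main structural proteins of the extracellular matrix, built as triple helices of chains that are either alike or encoded by different genes. Fibrillar collagens form the load-bearing fibrils of connective tissue, and FACIT collagens (fibril-associated collagens with interrupted triple helices) sit on the surface of those fibrils. Basement membrane collagen, type IV, forms the sheet under epithelia and around muscle and fat cells, network collagens form hexagonal lattices, and other types form beaded filaments, anchoring fibrils or membrane-bound chains. Fibroblasts are the main makers of fibrillar collagen, and ascorbic acid is a cofactor of the enzymes that hydroxylate collagen chains.

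The libraries held 30240750 to 38619711 counts in KO and 26955708 to 30235906 in WT. Actb, the gene targeted in KO cells, had 276, 1988 and 1850 counts in KO replicates 1, 2 and 3, against 60501, 60582 and 53894 in WT. KO replicate 1 stood apart from the other KO libraries on the second principal component of log2 expression (56.61 against -35.81 and -31.07, with WT between -0.23 and 6.8), which carried 13.3% of the variance. The test was edgeR's two-sided quasi-likelihood F test on counts. Each p was adjusted by the Benjamini-Hochberg method over the 15009 genes that passed the filter on low counts, and a gene with an adjusted p below 0.05 was called. By this rule 28.3% of all tested genes were called, 13.8% higher and 14.5% lower in KO. CPM below is counts per 1000000 in TMM-scaled libraries and TPM the level per exon length, each given as mean ± SD with n = 3. SE is the standard error of the difference in mean log2 CPM.

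Of the 44 chains, 30 had enough counts to be tested and 14 did not. The filter on low counts also keeps a chain that is well counted in a single genotype, so counts over the tested chains are a description. In KO fibroblasts 10 of the 30 tested chains rose, 6 fell and 14 were not called. That is 53.3% called, against 28.3% of all tested genes (13.8% higher and 14.5% lower). The changes ran in both directions and over a wide range, between a log2 fold change of -7.37 for Col8a2 and 5.91 for Col6a3. The median log2 fold change over the tested chains was 0.45, against 0.01 over all tested genes, and 14 of the 16 calls were at least 2-fold, against 2297 of the 4255 calls over all genes. In CPM the KO and WT libraries did not overlap for 21 of the 30 tested chains, against 7448 of the 15009 tested genes. Of 11 fibrillar chains, all tested, 4 rose and 3 fell. Of 6 basement membrane chains, 5 were tested and 4 rose. Of 9 FACIT chains, 5 were tested, of which 1 rose and 2 fell, and of 3 network chains, 2 were tested and 1 fell. Of the 15 remaining chains, 7 were tested and 1 rose. Without KO replicate 1, 15 chains were higher and 8 lower, and these included all 16 calls made with it. Over all genes 6537 of 15453 were called without that library, against 4255 of 15009 with it. In bulk RNA, fewer cells of a type and less RNA per cell cannot be told apart.

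**Figure D1:**
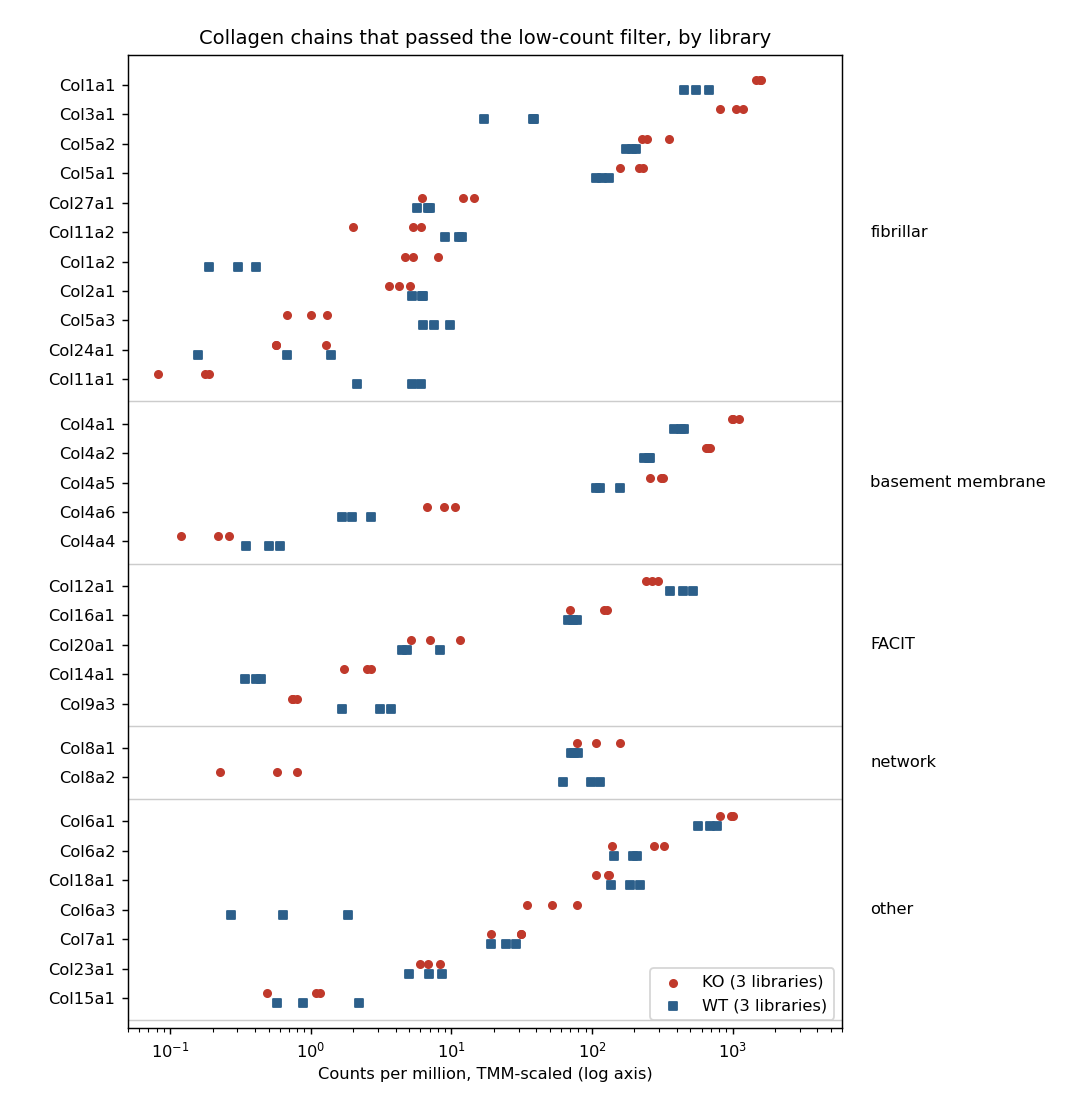
CPM (TMM-scaled, log axis) of the 30 tested collagen chains in each library, KO as circles above and WT as squares below on each line, grouped by class. Col3a1, Col1a2 and Col6a3 lie far to the right in KO, Col8a2, Col11a1 and Col5a3 far to the left, and Col1a1 and the type IV chains Col4a1 and Col4a2 are among the highest in both genotypes.

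**Figure D2:**
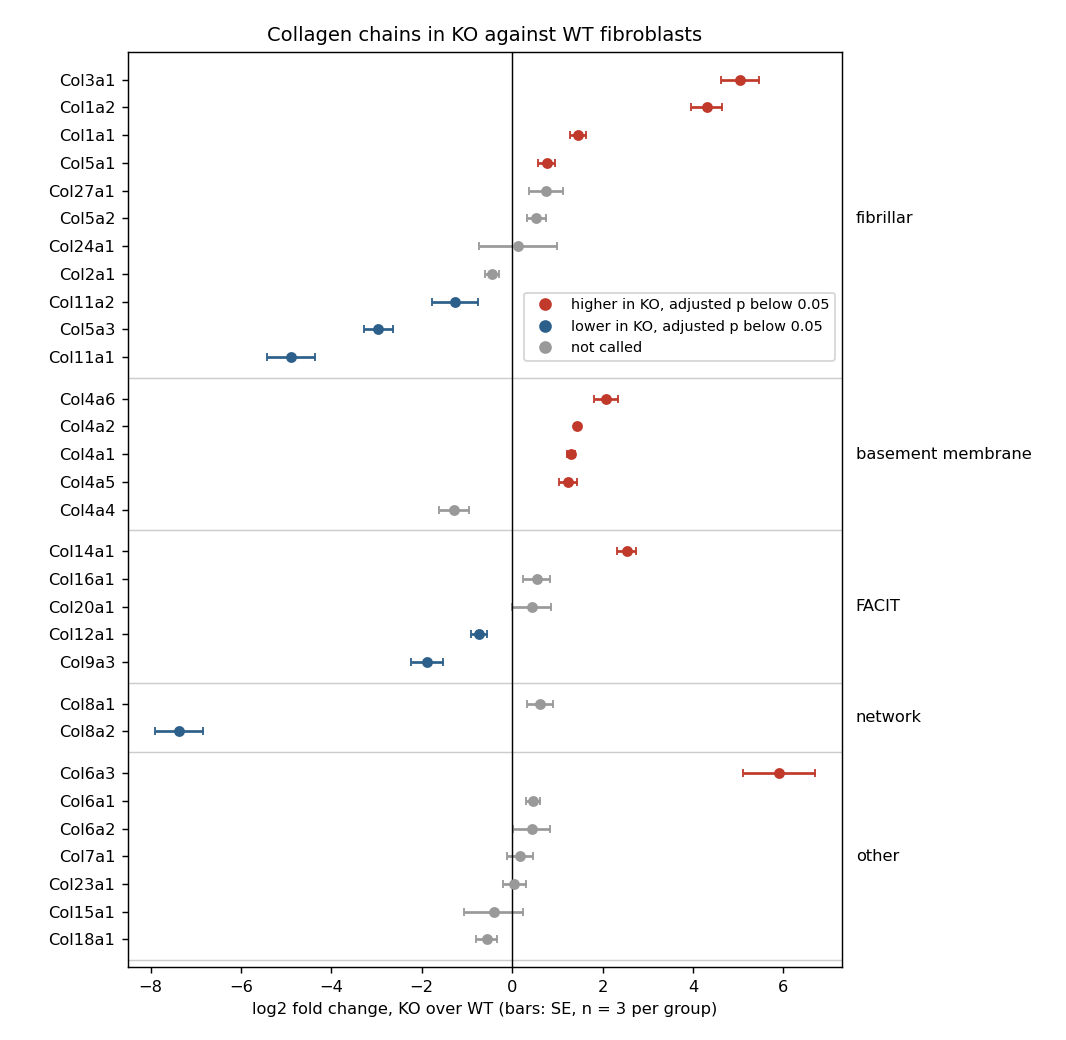
Log2 fold change of the same chains, KO over WT, with bars for the SE (n = 3 per group) and color for the call. Fibrillar chains spread on both sides of 0, while 4 of the 5 tested basement membrane chains sit between 1.23 and 2.07.

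The promoters of 6 chains on which the results turn are shown as the 250 bases before the RefSeq transcription start (build GRCm38.p6), 5′ to 3′ on the strand of the gene. They are the strongly higher Col1a2 (chr6:4505368-4505617, plus strand), Col3a1 (chr1:45311288-45311537, plus) and Col6a3 (chr1:90843972-90844221, minus), the strongly lower Col8a2 (chr4:126286544-126286793, plus), and the paired genes Col4a1 (chr8:11312827-11313076, minus) and Col4a2 (chr8:11312555-11312804, plus). Capitals mark matches on either strand to TATAAA (the TATA box), CCAAT (the CCAAT box, bound by NF-Y), GGGCGG (the GC box, bound by Sp1), CAGACA (a Smad-binding element) or the CArG box, searched by name, which is bound by SRF.
Col1a2: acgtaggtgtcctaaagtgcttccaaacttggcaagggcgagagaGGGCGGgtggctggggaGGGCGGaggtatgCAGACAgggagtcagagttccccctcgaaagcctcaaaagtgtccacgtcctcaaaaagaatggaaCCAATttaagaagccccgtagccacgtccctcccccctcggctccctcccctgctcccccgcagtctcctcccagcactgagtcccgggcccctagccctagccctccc
Col3a1: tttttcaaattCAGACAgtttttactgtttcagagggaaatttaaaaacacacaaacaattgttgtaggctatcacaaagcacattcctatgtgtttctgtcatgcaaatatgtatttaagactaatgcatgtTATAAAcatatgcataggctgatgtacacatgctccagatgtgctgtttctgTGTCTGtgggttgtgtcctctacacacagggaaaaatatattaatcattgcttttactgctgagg
Col6a3: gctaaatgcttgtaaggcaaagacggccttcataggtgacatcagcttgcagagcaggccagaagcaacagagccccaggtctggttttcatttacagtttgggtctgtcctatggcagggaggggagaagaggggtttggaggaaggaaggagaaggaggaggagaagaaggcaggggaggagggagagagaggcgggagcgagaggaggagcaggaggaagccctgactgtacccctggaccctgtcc
Col8a2: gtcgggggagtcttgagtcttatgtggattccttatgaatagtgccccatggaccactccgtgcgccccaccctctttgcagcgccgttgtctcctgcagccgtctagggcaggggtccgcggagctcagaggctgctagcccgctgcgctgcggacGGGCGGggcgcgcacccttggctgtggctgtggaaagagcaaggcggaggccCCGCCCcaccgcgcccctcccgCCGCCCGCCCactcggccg
Col4a1: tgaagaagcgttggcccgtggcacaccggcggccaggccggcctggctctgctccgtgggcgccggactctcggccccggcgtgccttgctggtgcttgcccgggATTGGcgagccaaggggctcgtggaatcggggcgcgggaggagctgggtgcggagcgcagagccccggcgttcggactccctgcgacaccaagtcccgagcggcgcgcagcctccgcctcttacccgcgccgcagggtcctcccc
Col4a2: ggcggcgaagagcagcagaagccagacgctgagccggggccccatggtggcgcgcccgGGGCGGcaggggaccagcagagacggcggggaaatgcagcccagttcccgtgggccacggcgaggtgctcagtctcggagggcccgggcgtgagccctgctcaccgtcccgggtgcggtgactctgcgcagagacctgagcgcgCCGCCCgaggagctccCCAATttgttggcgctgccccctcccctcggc
The Col3a1 window held a TATA box letter match and a pair of Smad element matches, and its GC content was 35.2%. The Col1a2 window held a CCAAT box, a pair of GC boxes and a Smad element. The Col8a2 window held 4 GC boxes, of which the last pair overlap, and the Col6a3 window held no match. The windows of Col4a1 and Col4a2 each held a CCAAT box and had 74.4% and 73.6% GC. Each of these windows lies within the annotated body of the other gene. A match describes the letters and is neither a bound site nor a cause. RefSeq windows were at hand for 35 of the 44 chains, 38 windows in all. None was at hand for the called chains Col1a1, Col9a3, Col12a1 and Col14a1, or for Col2a1, Col4a3, Col5a2, Col22a1 and Col26a1. In the 250 bases before the start, the GC box was present in 57.9% of the collagen windows and 32.7% of all 32851 mouse windows, and the CCAAT box in 34.2% and 33.8%. The TATA box was present in 13.2% of the collagen windows and 12.4% of all, and the Smad element in 23.7% and 17.1%. The CArG box was present in 1 collagen window, that of Col6a4 (2.63%), and in 1.47% of all windows. Over the whole windows of 300 bases the median GC content was 59.8% for collagen chains and 52.7% for all genes.

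Among the fibrillar chains, type III and type I collagen were higher in KO cells. Type III collagen is a homotrimer of Col3a1 chains and typical of elastic and healing tissue. Col3a1 (ENSMUSG00000026043, chromosome 1, 45311538 to 45349706, plus strand) had 31751, 27342 and 38941 counts in KO libraries 1 to 3, against 1220, 538 and 1122 in WT. Every KO library was far above every WT library. Col3a1 rose 32.9-fold (log2 fold change 5.04, SE 0.42, edgeR adjusted p = 0.000152), at 1021 ± 194 CPM in KO and 31.0 ± 12.2 CPM in WT. Type I collagen, the most abundant collagen of the body, is usually made of paired Col1a1 chains with a single Col1a2 chain. Col1a1 (ENSMUSG00000001506, chromosome 11, 94936224 to 94953042, plus strand) had 39300, 53055 and 58276 counts in KO libraries, against 17413, 14286 and 20248 in WT. The groups did not overlap, and Col1a1 rose 2.76-fold (log2 fold change 1.46, SE 0.18, adjusted p = 0.00113). Col1a2 (ENSMUSG00000029661, chromosome 6, 4504814 to 4541544, plus strand) had 125, 269 and 196 counts in KO libraries, against 13, 6 and 9 in WT. It rose 19.8-fold (log2 fold change 4.30, SE 0.35, adjusted p = 0.00035) and yet stayed far below its partner in both genotypes. The annotated gene body begins upstream of the RefSeq start used for its promoter. Per exon length, Col1a1 stood at 643 ± 50.2 TPM in KO and 284 ± 74.9 TPM in WT, and Col1a2 at 1.33 ± 0.42 TPM in KO and 0.08 ± 0.03 TPM in WT.

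Type V collagen is incorporated into type I fibrils and limits their diameter, and its chains split. Col5a1 had 4172, 7325 and 8404 counts in KO libraries, against 3743, 3383 and 3934 in WT. It rose to 201 ± 38.6 CPM in KO, against 119 ± 13.3 CPM in WT (log2 fold change 0.76, SE 0.19, edgeR adjusted p = 0.0142). The call was lost with libraries scaled by their totals (adjusted p = 0.061), without WT replicate 1 (0.0619) and without WT replicate 2 (0.0733). Its usual partner Col5a2 was not called, at 275 ± 67.4 CPM in KO and 191 ± 16.6 CPM in WT (log2 fold change 0.53, adjusted p = 0.0663). Col5a2 was called higher with DESeq2 (adjusted p = 0.0491), without KO replicate 1 (0.0394) and without KO replicate 2 (0.0427). Col5a3, the rarer alternative chain of type V, had 18, 34 and 48 counts in KO libraries, against 310, 199 and 222 in WT. It fell 7.76-fold (log2 fold change -2.96, SE 0.32, adjusted p = 0.000761), and no KO library came near a WT library.

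Both genes named for type XI, the fibril nucleator of cartilage, fell. Col11a1 had 5, 6 and 3 counts in KO libraries, against 193, 68 and 154 in WT (log2 fold change -4.90, SE 0.53, edgeR adjusted p = 0.000869). Col11a2 had 53, 204 and 195 counts in KO libraries, against 286, 358 and 352 in WT, so that KO replicate 1 lay well below the other KO libraries. Col11a2 fell to 4.45 ± 2.16 CPM in KO, against 10.7 ± 1.52 CPM in WT (log2 fold change -1.26, SE 0.51, adjusted p = 0.0446). Its call was lost without KO replicate 3 (adjusted p = 0.0681), without WT replicates 1, 2 or 3 (0.0896, 0.127 and 0.131) and with an offset for GC content (0.0776). The other fibrillar chains were not called. Col2a1, the main cartilage collagen, stood at 4.30 ± 0.74 CPM in KO and 5.90 ± 0.57 CPM in WT. Col24a1 was below 1.5 CPM in every library, with overlapping groups. Col27a1 stood at 10.9 ± 4.27 CPM in KO and 6.51 ± 0.71 CPM in WT (log2 fold change 0.75, adjusted p = 0.115). It was called higher without KO replicate 1 (log2 fold change 1.03, adjusted p = 0.00146) and with the GC offset (0.0448).

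Type IV collagen is the scaffold of basement membranes, and its widespread form pairs Col4a1 with Col4a2. In KO cells the chains of this form rose together with Col4a5 and Col4a6, which form another type IV molecule. Col4a1 (ENSMUSG00000031502, chromosome 8, 11198423 to 11312826, minus strand) had 29684, 33837 and 36605 counts in KO libraries, against 12179, 13579 and 13412 in WT. Col4a2 (ENSMUSG00000031503, chromosome 8, 11312805 to 11449287, plus strand) had 18270, 21818 and 24485 counts in KO libraries, against 7387, 8061 and 7592 in WT. The KO libraries were all above the WT libraries for both. Col4a1 rose 2.47-fold (log2 fold change 1.30, SE 0.09, edgeR adjusted p = 0.000518) and Col4a2 rose 2.69-fold (log2 fold change 1.43, SE 0.05, adjusted p = 0.000212). These neighbours are transcribed away from each other and their annotated bodies overlap by 22 bases. The library kit, TruSeq RNA v2, does not mark strand, so reads in those bases cannot be assigned to either gene by strand, while the overlap makes up 0.295% of the exon length of Col4a1 and 0.332% of that of Col4a2.

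Col4a5 had 8453, 10428 and 9497 counts in KO libraries, against 3599, 3403 and 4687 in WT (log2 fold change 1.23, SE 0.20, edgeR adjusted p = 0.00244). Col4a6, its neighbour on chromosome X at a distance of 1308 bases and also transcribed away from it, had 237, 360 and 248 counts in KO libraries, against 62, 53 and 79 in WT (log2 fold change 2.07, SE 0.27, adjusted p = 0.00185). For both the KO and WT libraries did not overlap, and Col4a5 was the far more abundant of the pair, at 120 ± 11.2 TPM in KO and 62.7 ± 17.9 TPM in WT. Col4a6 stood at 3.00 ± 0.70 TPM in KO and 0.88 ± 0.27 TPM in WT. The third head-to-head pair, Col4a3 and Col4a4, which take part in the type IV collagen of the kidney filter, was near the limit of detection. Col4a4 had 7, 4 and 8 counts in KO libraries, against 11, 16 and 18 in WT, and was not called (log2 fold change -1.28, adjusted p = 0.0611). Col4a4 was called lower without KO replicate 1 (adjusted p = 0.0378) and with libraries scaled by their totals (0.0352). Col4a3 had 15 counts in KO and 11 in WT over all libraries and was not tested.

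FACIT collagens moved in both directions. Col12a1, whose product lines type I fibrils in tissues under tension, had 7078, 9915 and 8829 counts in KO libraries, against 14092, 11383 and 15526 in WT. It fell to 267 ± 26.9 CPM in KO, against 442 ± 83.3 CPM in WT, and the groups did not overlap (log2 fold change -0.73, SE 0.18, edgeR adjusted p = 0.0154). Its adjusted p was 0.0562 without KO replicate 3, 0.0539 without WT replicate 1 and 0.0519 without WT replicate 3. Col14a1, the close relative of Col12a1, rose, with 67, 91 and 63 counts in KO libraries against 14, 13 and 10 in WT (log2 fold change 2.53, SE 0.22, adjusted p = 0.00142). Col9a3, a chain of the cartilage collagen type IX, fell, with 20, 27 and 27 counts in KO libraries against 99, 119 and 49 in WT (log2 fold change -1.89, SE 0.35, adjusted p = 0.00767). The exons of Col9a3 overlap those of Tcfl5 on the opposite strand over 6.07% of their length, and without strand the reads there cannot be told apart. Its partner chains Col9a1 and Col9a2 had 1 and 9 counts in KO and 0 and 18 in WT and were not tested. Col16a1, a minor fibril-associated collagen, was not called at 106 ± 31.7 CPM in KO and 72.7 ± 5.15 CPM in WT (log2 fold change 0.54, adjusted p = 0.105). Col16a1 was called higher without KO replicate 1 (log2 fold change 0.77, adjusted p = 0.000418) and with the GC offset (adjusted p = 0.0178). Col20a1 was not called, at 7.93 ± 3.23 CPM in KO and 5.87 ± 2.15 CPM in WT.

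Of all tested chains, the network collagen Col8a2 had the largest fall. Type VIII collagen forms the hexagonal lattice of the corneal endothelial membrane and is also made in vessel walls, from Col8a1 and Col8a2 chains. Col8a2 (ENSMUSG00000056174, chromosome 4, 126286793 to 126314330, plus strand) had 6, 27 and 21 counts in KO libraries, against 3120, 1972 and 3366 in WT. It fell 165-fold (log2 fold change -7.37, SE 0.54, edgeR adjusted p = 7.17e-05), at 0.532 ± 0.29 CPM in KO and 91.2 ± 26.5 CPM in WT. Its partner Col8a1 was not called, at 114 ± 39.7 CPM in KO and 74.8 ± 3.95 CPM in WT (log2 fold change 0.61, adjusted p = 0.0881), and its groups overlapped. Without KO replicate 3, which had the lowest KO level, Col8a1 was called higher (log2 fold change 0.83, adjusted p = 0.0208). Col10a1, the network collagen of growth plate cartilage, had 4 counts in KO and 25 in WT and was not tested.

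Type VI collagen, the beaded filament around fibroblasts, muscle and fat cells, is built from Col6a1, Col6a2 and a further chain that is usually Col6a3. Col6a3 (ENSMUSG00000048126, chromosome 1, 90765923 to 90843971, minus strand) had 919, 1748 and 2892 counts in KO libraries, against 58, 20 and 8 in WT. It rose 59.9-fold (log2 fold change 5.91, SE 0.80, edgeR adjusted p = 0.000658), at 55.0 ± 22.2 CPM in KO and 0.907 ± 0.813 CPM in WT. The libraries within each genotype differed several-fold, but the lowest KO library was far above the highest WT library. Without WT replicate 1, the highest WT library, the log2 fold change was 6.90 (adjusted p = 0.00192). Col6a1 and Col6a2, which lie on the same strand of chromosome 10, were abundant in both genotypes and not called. Col6a1 stood at 931 ± 101 CPM in KO and 675 ± 101 CPM in WT (log2 fold change 0.46, adjusted p = 0.065). Col6a2 stood at 245 ± 95.9 CPM in KO and 182 ± 35.3 CPM in WT (log2 fold change 0.43, adjusted p = 0.328). In KO replicate 1 Col6a2 had 3660 counts, against 10869 and 10073 in the other KO libraries. Without that library both were called higher, Col6a1 at a log2 fold change of 0.55 (adjusted p = 0.0128) and Col6a2 at 0.71 (adjusted p = 0.00973), and Col6a1 also with DESeq2 (0.0286) and the GC offset (0.0254). The alternative chains Col6a4, Col6a5 and Col6a6 had 8, 9 and 0 counts in KO and 32, 5 and 2 in WT and were not tested.

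Among the remaining chains, Col18a1, a basement membrane proteoglycan that yields endostatin, was not called at 123 ± 14.7 CPM in KO and 181 ± 42.6 CPM in WT (log2 fold change -0.56, edgeR adjusted p = 0.0636). It was called lower without KO replicate 1 (adjusted p = 0.0419), without WT replicate 3 (0.0279), with no filter on low counts (0.0381), with upper-quartile scaling (0.0407) and with library totals (0.0163). Col7a1, the anchoring fibril of skin, stood at 27.3 ± 7.08 CPM in KO and 24.1 ± 4.85 CPM in WT and was not called. Col15a1, the relative of Col18a1, and the membrane-bound Col23a1 had log2 fold changes of -0.41 and 0.05 and were not called. Without WT replicate 1 the log2 fold change of Col15a1 was 0.33, of the opposite sign, and again not called. The 14 chains that were not tested had 0 to 35 counts in KO and 0 to 32 in WT, summed over the libraries of a genotype. The largest of these sums in KO was that of Col17a1, the membrane-bound collagen of the skin hemidesmosome, with 35 counts in KO and 17 in WT. Col28a1 had 8, 1 and 8 counts in KO libraries and none in any WT library. Taking 3 counts over the WT group as the most that a group without counts could hide, its 17 KO counts, taken as they stand, were at least 4.75-fold higher per library total. The counting error of those 17 counts is not included. The other chains not named above with values, Col13a1, Col19a1, Col22a1, Col25a1 and Col26a1, had 1 to 8 counts in KO and 0 to 28 in WT. None of the 44 chains was without a count in all libraries.

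As a whole, the collagen chains took a larger part of the KO libraries. They made up 0.614%, 0.664% and 0.669% of counts in KO libraries, against 0.365%, 0.332% and 0.428% in WT, a ratio of 1.73. An exact two-sided permutation test gave p = 0.1, the smallest that 3 libraries against 3 can give. Per length the share was 0.272% of TPM in KO and 0.172% in WT. The make-up of this pool also differed. Fibrillar chains held 39.5 ± 1.79% of collagen TPM in KO and 24.4 ± 1.47% in WT, and basement membrane chains 28.6 ± 1.88% in KO and 21.9 ± 2.15% in WT. FACIT chains held 3.54 ± 0.41% in KO and 8.08 ± 0.13% in WT, network chains 1.48 ± 0.53% in KO and 5.76 ± 0.61% in WT, and the remaining chains 26.9 ± 3.24% in KO and 39.8 ± 1.03% in WT. For each class the KO and WT libraries did not overlap, with an exact permutation p = 0.1 for each. These shares sum to the whole, so a larger share of one class makes that of the others smaller.

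**Figure D3:**
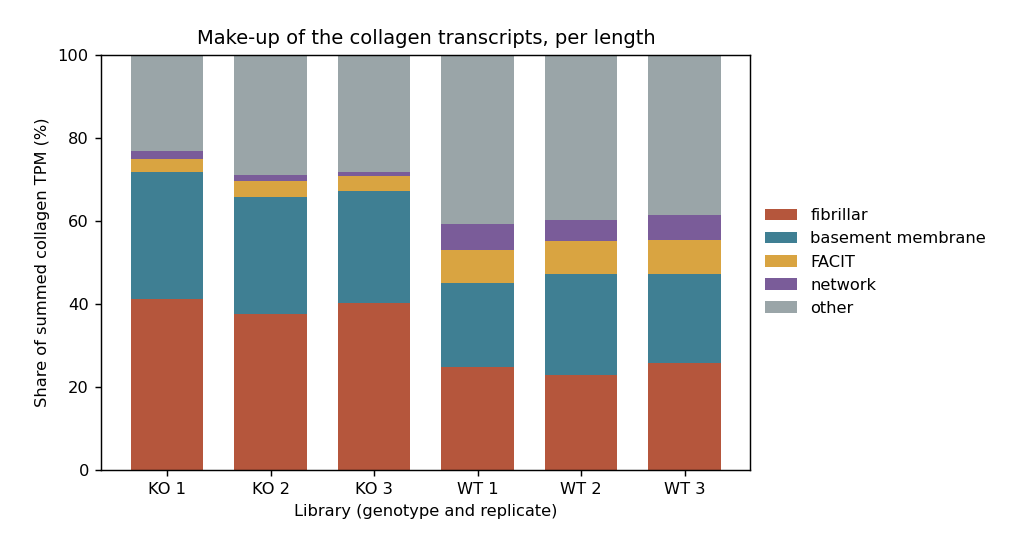
Share of each collagen class in the summed collagen TPM (percent, per exon length) of each library, KO on the left. Fibrillar chains make up 37.6% to 41.0% of the column in KO and 22.8% to 25.7% in WT, and network chains 1.0% to 2.04% in KO and 5.08% to 6.25% in WT.

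The order of the chains by TPM was not the same in the genotypes. In KO cells Col1a1 (643 TPM) stood first, with Col6a1 (582), Col4a1 (379), Col3a1 (283), Col4a2 (275) and Col4a5 (120) after it. In WT cells Col6a1 (512 TPM) stood first, with Col1a1 (284), Col4a1 (187), Col4a2 (124), Col12a1 (96.5) and Col18a1 (84.7) after it. Some neighbours in these orders overlapped between libraries, such as Col1a1 (585 to 673 TPM) and Col6a1 (485 to 640 TPM) in KO and Col3a1 (231 to 316 TPM) and Col4a2 (270 to 281 TPM) in KO. Col3a1 ranked 4 of 44 in KO and 14 of 44 in WT, Col8a2 ranked 27 in KO and 8 in WT, and Col6a3 ranked 14 in KO and 28 in WT. Col3a1 alone took 10.4 ± 2.05% of collagen TPM in KO and 0.601 ± 0.201% in WT.

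The proportions of chains that assemble into the same molecule were followed as ratios within each library. The ratio of Col4a1 to Col4a2, per exon length, was 1.38 ± 0.06 in KO and 1.51 ± 0.05 in WT (exact permutation p = 0.1, 0.167 adjusted over 5 ratios). Col5a1 to Col5a2 was 0.877 ± 0.325 in KO and 0.704 ± 0.068 in WT (exact p = 0.4, adjusted 0.5), and Col6a1 to Col6a2 was 7.99 ± 2.88 in KO and 7.10 ± 0.47 in WT (exact p = 0.9, adjusted 0.9). In both of these KO replicate 1 stood apart from the other KO libraries, at 0.503 against 1.08 and 1.05 for the first ratio and at 11.3 against 5.9 and 6.78 for the second. Col3a1 to Col1a1, chains of different molecules that share fibrils, was 0.444 ± 0.098 in KO and 0.036 ± 0.011 in WT, and Col5a1 to Col1a1 was 0.10 ± 0.016 in KO and 0.166 ± 0.016 in WT (each exact p = 0.1, adjusted 0.167). With 3 libraries against 3, none of these ratios could pass 0.05.

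For another 3 partnerships one chain had under 10 counts in some library, and their values, chosen after the counts were seen, are given per exon length with exact 95% counting intervals over the pooled libraries of a genotype. These intervals cover counting error only. Col1a1 to Col1a2 was 483 (446 to 525) in KO and 3510 (2430 to 5290) in WT. By library the ratio was 595, 373 and 563 in KO and 2540, 4510 and 4260 in WT. The size of such a ratio depends on the lengths used, beyond its counting interval, and per coding length it was 241 in KO and 1750 in WT. Col6a1 to Col6a3 was 44.9 (43.7 to 46.1) in KO and 1990 (1610 to 2490) in WT, with 64.5, 52.7 and 33.9 by KO library and 1030, 2470 and 7790 by WT library. Per coding length it was 52.7 in KO and 2340 in WT. Col8a1 to Col8a2 was 113 (86.8 to 151) in KO and 0.473 (0.458 to 0.488) in WT, with 399, 76.8 and 78.6 by KO library and 0.462, 0.685 and 0.359 by WT library. Per coding length it was 186 in KO and 0.775 in WT, where it passed 1 in WT replicate 2 (0.757, 1.12 and 0.589 by WT library). Col1a2 and Col6a3 were thus scarce beside their partners in both genotypes and less so in KO, whereas Col8a2 was scarce beside Col8a1 in KO and of a similar order in WT.

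**Figure D4:**
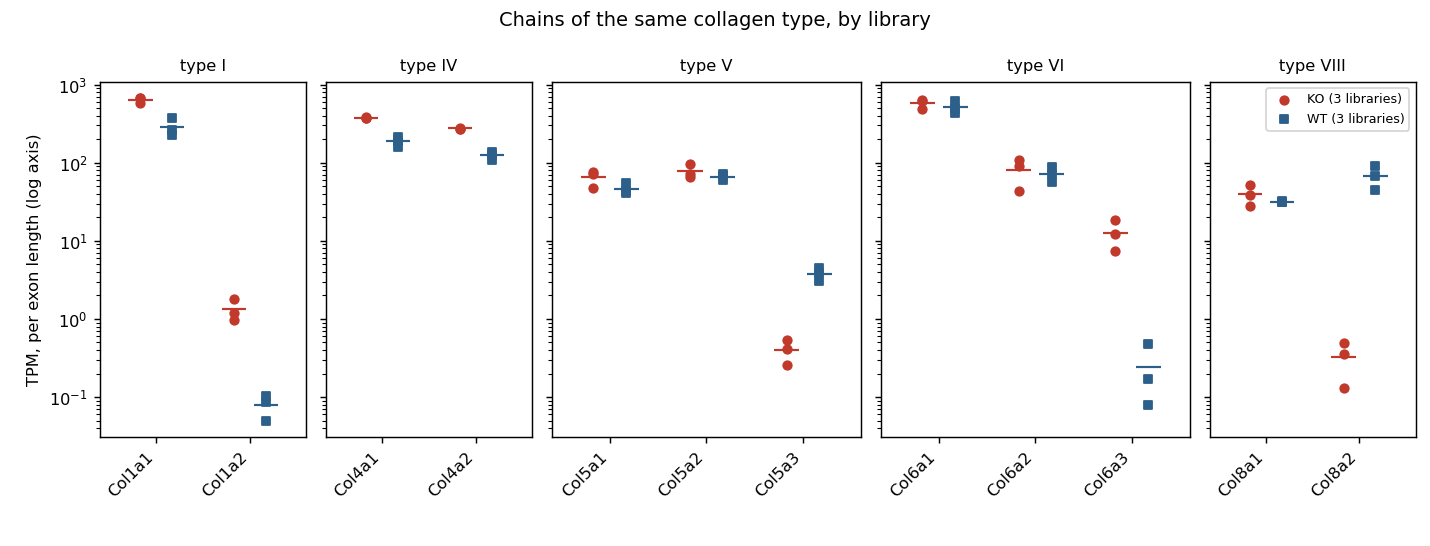
TPM (per exon length, log axis) of chains that assemble into the same collagen type, with 1 point per library, KO circles left of WT squares, and a line for the mean. Col4a1 and Col4a2 move in parallel, while Col1a2, Col5a3 and Col6a3 lie far below their partners in both genotypes and Col8a2 far below Col8a1 in KO, and all 4 shift by more than these.

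Genes that modify, export, process or bind collagen were counted together with transcription factors listed as regulators of collagen genes. The lists held 72 genes, of which 64 were tested. Of these, 29 were higher in KO, 4 lower and 31 not called, which is 51.6% called. Over all tested genes 28.3% were called, 13.8% higher and 14.5% lower. The median log2 fold change was 0.45 over the tested partner genes and 0.01 over all tested genes. Of 14 tested genes on the list for prolyl and lysyl hydroxylation, 11 were higher and none lower. Besides catalytic enzymes this list holds their subunits and partners, among them P4hb, Crtap, P3h4 and Ppib, which were all called higher. Plod2, a lysyl hydroxylase of the telopeptides, rose to 201 ± 26.7 CPM in KO, against 84.2 ± 4.22 CPM in WT (log2 fold change 1.26, SE 0.12, edgeR adjusted p = 0.000616). P4ha2, a catalytic subunit of prolyl 4-hydroxylase, rose to 206 ± 52.1 CPM in KO, against 67.9 ± 15.4 CPM in WT (log2 fold change 1.60, SE 0.28, adjusted p = 0.0023). Without WT replicate 2, 7 of the list were higher. Of 9 tested chaperone and export genes 4 rose and none fell. They included Sec24d (log2 fold change 1.04, SE 0.11, adjusted p = 0.00113) and Sec23a (1.02, SE 0.14, adjusted p = 0.00216), subunits of the coat of the vesicles that carry procollagen out of the endoplasmic reticulum. Without KO replicate 1, 7 of this list were higher and 1 lower.

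Of 6 tested propeptide removal genes 3 rose and 1 fell. Adamts2, the main N-propeptidase of type I and type III procollagen, had 1863, 3319 and 3041 counts in KO libraries, against 361, 363 and 434 in WT (log2 fold change 2.75, SE 0.19, edgeR adjusted p = 0.000106). Adamts14, of the same family, rose by 0.98 on the log2 scale (SE 0.11, adjusted p = 0.00657). Adamts3 fell, with 0, 1 and 6 counts in KO libraries against 50, 11 and 27 in WT (adjusted p = 0.0189), and its call was lost without KO replicate 2 (0.0518), WT replicate 1 (0.0723) or WT replicate 3 (0.058). The log2 fold change of Adamts3 was -3.67 with all libraries and -5.53 without KO replicate 3. Of 5 crosslinking enzymes 2 rose, Loxl2 (log2 fold change 0.78, SE 0.11, adjusted p = 0.00339) and Lox (1.01, SE 0.23, adjusted p = 0.0101), which crosslink collagen through lysine residues. The call of Lox was lost without WT replicate 2 (adjusted p = 0.0539), and without KO replicate 1, 4 of the 5 enzymes were higher.

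Of 7 tested small proteoglycans that bind fibrils 5 rose, among them Fmod, fibromodulin (log2 fold change 4.51, SE 0.77, edgeR adjusted p = 0.00239), and Lum, lumican (3.99, SE 0.84, adjusted p = 0.00622). Both varied widely, with 1203, 4598 and 1739 counts of Fmod in KO libraries against 85, 47 and 176 in WT. The log2 fold change of Fmod was 3.79 without KO replicate 2 and 5.19 without WT replicate 3, and that of Lum was 5.37 without WT replicate 3. The 5 became 2 without WT replicate 1, 2 without WT replicate 2 and 3 without WT replicate 3. The 2 not called, Bgn and Dcn, had log2 fold changes of -1.84 and -0.47. The log2 fold change of Bgn was -0.3 without WT replicate 1, its highest library. Bgn was called lower without WT replicate 2 (adjusted p = 0.0476) and with no filter on low counts (0.0288). Of 8 tested collagen receptors 2 rose and 1 fell. Itga11, the integrin chain that binds fibrillar collagen on fibroblasts, had 2178, 1998 and 1954 counts in KO libraries, against 123, 71 and 186 in WT (log2 fold change 3.97, SE 0.46, adjusted p = 0.00043). Its partner Itgb1 rose by 1.01 on the log2 scale (SE 0.18, adjusted p = 0.00537), and Ddr2, a receptor tyrosine kinase for fibrillar collagen, fell (log2 fold change -0.61, SE 0.13, adjusted p = 0.0142), a call lost without WT replicate 2 (0.0536). Of 15 tested transcription factors listed as regulators of collagen genes 2 rose and 2 fell, 26.7% called against 28.3% of all tested genes. Runx2 (log2 fold change 0.76, adjusted p = 0.0179) and Trp63 (1.33, adjusted p = 0.0289) were higher and Scx, scleraxis (-1.03, adjusted p = 0.0297), was lower. Runx2 was not called without WT replicate 1 (adjusted p = 0.0712) or WT replicate 2 (0.0813). Trp63 lost its call without KO replicate 3 (0.0896), without WT replicates 1, 2 or 3 (0.0916, 0.115 and 0.0623) and with library totals (0.0548). Scx lost its call without KO replicates 2 or 3 (0.0532 and 0.0724), without WT replicates 1 or 2 (0.0928 and 0.115) and with the GC offset (0.0734).

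Some genes on lists of cell type markers were also called, and the part of these markers in the results was not tested. By the same rule 28.3% of all tested genes were called, so 1 call among 3 or 5 tested markers does not set a list apart. Of 10 fibroblast markers 9 were tested and 4 rose, and their summed level was 5490 to 8040 CPM in KO and 2740 to 3280 CPM in WT, mostly Fn1. Pdgfrb, Prrx1, Twist1, Fbn1 and S100a4 were tested and not called. Vim and Prrx1 were well expressed in both genotypes, whereas Thy1 had 50 counts in KO and 1 in WT and Fap had 10 counts in KO and 4 in WT. Of 8 smooth muscle markers 6 rose, with a summed level of 4610 to 12900 CPM in KO, mostly Acta2, and 114 to 146 CPM in WT. Myh11, the defining myosin of that lineage, had 80 counts in KO and 71 in WT. Osteoblast markers summed to 1010 to 2400 CPM in KO and 191 to 311 CPM in WT, mostly Spp1, with 2 of 3 tested higher, while Bglap had 18 counts in KO and 52 in WT. Chondrocyte markers summed to 21.5 to 27.6 CPM in KO and 26.6 to 28.9 CPM in WT, mostly Sox9, with 1 of 3 tested higher, and the defining marker Acan had 1 count in KO and 2 in WT. Of 4 tested epithelial markers 3 rose and 1 fell. The list summed to 31.2 to 53.5 CPM in KO and 5.53 to 10.9 CPM in WT, mostly Krt19. Epcam, which fell, was at 0 counts in KO and 127 in WT. The untested Cdh1, Krt8, Esrp1 and Cldn7 had 6, 8, 3 and 1 counts in KO and 29, 19, 13 and 4 in WT. Adipocyte markers summed to 43.3 to 147 CPM in KO and 49.4 to 53.4 CPM in WT, with 1 of 3 tested higher and 1 lower. The third, Fabp4, was not called, at 109 CPM in KO replicate 1 and 8.6 and 16.2 CPM in KO replicates 2 and 3. Adipoq was at 1 count in KO and 0 in WT, and Lep at 0 throughout. Endothelial markers summed to 2.37 to 3.79 CPM in KO and 3.61 to 5.06 CPM in WT (1 of 5 tested lower), with 5 counts of Cdh5 in KO and 2 in WT. Macrophage markers summed to 3.47 to 15.8 CPM in KO and 8.68 to 21.2 CPM in WT, mostly Cd68 (1 of 3 tested lower). Cd68 was not called, at 14.6 CPM in KO replicate 1 and 2.1 and 2.4 CPM in KO replicates 2 and 3. Ptprc had 1 count in KO and 0 in WT, and Tyrobp was at 0 throughout.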

How the data were processed

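RNA sequencing of 3 KO and 3 WT libraries was analysed from raw counts per Ensembl gene, as deposited by the authors. Per the submitters' processing notes, the build was GRCm38.p4 and the tools were TopHat2 2.1.0, HTSeq and DESeq2. Which annotation release and strand setting they used is not given in the sources used here. Of 46603 identifiers, 46005 matched a GENCODE annotation of GRCm38, which gave symbols, positions, exon lengths and GC content. Counts were fitted in R 4.3.3 with edgeR 4.0.16 (filterByExpr by group, TMM, quasi-likelihood F test, group as the sole term), with Benjamini-Hochberg adjustment over all 15009 tested genes. The fit was also run on simulated counts, with the same dispersion for every gene and no outlying library. The data are less even than this, so that run does not bear on individual calls. TPM used the union of exons. Library totals set a limit of 3 counts, 0.0777 to 0.111 CPM. Shares and ratios were compared by exact permutation. The alternatives tried were scaling by RLE, by upper quartile and by library totals, scaling without the 10 most abundant genes, DESeq2 1.42.0, limma-voom (limma 3.58.1), other filters, a replicate block, a GC offset, glmTreat, and each library left out in turn.

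The members, the lists, the tests and the naming rule were chosen with earlier results of these data known. Called chains with a mean of at least 5 CPM in a genotype are given by library, uncalled chains of at least 10 CPM by group means, called chains below 5 CPM by counts, and others by range. Of each partner list, the 2 called genes with the smallest p are named, plus 1 in the other direction. The uncalled Bgn and Dcn are named beyond this rule. One symbol of the export list, Ctage5, had no match.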

Additional observations from a re-analysis of the deposited data

How the results depend on the processing

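Of the fold changes of collagen chains recomputed under the alternatives of the fit, 471 stayed on their side of the threshold. Another 19 passed it newly, 18 lost it and none of the called ones reversed. Direction was compared only where either fit made a call, so uncalled chains such as Col15a1 could change sign among the 471. With libraries scaled by their totals the median of all genes moved to -0.19, and 1351 genes were higher and 3347 lower, against 2074 and 2181; 9 chains were then higher and 8 lower, among them 1 basement membrane and 1 other chain. Against a log2 fold change of 1 the counts were 445 higher and 714 lower over all genes, 3 lower chains, 2 higher basement membrane chains, no lower FACIT chain, and 5 higher and no lower partner genes. DESeq2 gave 3 higher other chains. The GC offset gave 2 higher other chains, 2 higher FACIT chains and 2 lower partner genes. No filter gave 2 higher and 1 lower other chains, and upper-quartile scaling 1 lower.

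With each library left out in turn, 1003 (without WT replicate 2) to 3075 (without KO replicate 1) genes were higher and 1295 to 3462 lower. Without WT replicates 1 and 3 the counts were 1225 and 1294 higher, and 1418 and 1531 lower. Chains ranged over 9 to 15 higher and 4 to 8 lower, FACIT chains over 1 to 2 higher and 1 to 2 lower, and basement membrane lower, network higher and other lower chains each over 0 to 1. Other chains ranged over 1 to 3 higher, and partner genes over 17 (without WT replicate 2; 19 without WT replicate 1) to 37 higher and 1 to 7 lower. A fit with fewer libraries has less power.

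The replicate numbers do not pair the libraries: deviations of equally numbered libraries correlated at -0.101, 0.046 and -0.148 across genes. With the replicate number as a block, 10 chains were higher and 5 lower, the calls of Col12a1 (adjusted p = 0.0518), P3h4 (0.0593), Ppib (0.113), Ogn (0.0689), Nfya (0.13) and Scx (0.0528) were lost, 1 FACIT chain and 2 partner genes were lower, and 1446 genes were higher and 1599 lower.

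Without the 10 most abundant genes the collagen share of counts was 0.696% in KO and 0.397% in WT. With all genes kept, the share of TPM was 0.272% in KO and 0.172% in WT. With coding length, Col4a1 to Col4a2 became 1.59 in KO and 1.74 in WT, Col6a1 to Col6a2 4.24 in KO and 3.77 in WT, and Col3a1 to Col1a1 0.659 in KO and 0.054 in WT, while Col5a1 to Col5a2 was 0.633 in KO and 0.508 in WT. Depth limits the 14 untested chains and the partner ratios of Col1a2, Col6a3 and Col8a2.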
